A study of Mus musculus with 12 samples.

Results

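The genes described here encode the channels through which calcium enters a cell from outside or leaves its internal stores, with the subunits and sensors that work directly with them. They were taken by symbol from the deposited tables: voltage-gated calcium channel subunits (Cacna, Cacnb and Cacng names), TRPC and TRPV channels, Trpm2, Trpm3, Trpm4 and Trpm7, the ryanodine and IP3 receptors, and the Orai and Stim genes. Cacna1f, Cacna2d4 and Cacnb2 were not among them. Of 52850 gene symbols in the tables, 53 matched, and 49 had a summed count of at least 100 over the 12 libraries. Cacng6, Trpc5, Trpv5 and Trpc5os fell below that count. Of the 49, 48 encode channel subunits or sensors, and Trpc4ap, matched by its name, encodes a protein that associates with TRPC channels.

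The study sequenced RNA from retinas of C57BL/6 mice, recovered by pulling down ribosomes through an HA epitope tag, from a cell type given as retinal pericytes, which ensheath capillaries. One group of 6 libraries came from postnatal day 9 (P9) and the other group of 6 from postnatal day 3 (P3), the ages at which retinal vessels remodel and first spread. Mice of both groups had been injected with tamoxifen on postnatal days 1 and 2. No source used here gives the promoter that drives the tag or the number of animals in a library. The p-values therefore measure the spread between libraries, which may be technical in part. More days separated tamoxifen from harvest at P9, and age cannot be told apart from that interval.

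A rise in cytosolic calcium makes smooth muscle and pericytes contract, triggers transmitter release from neurons and drives slower programmes of growth. Voltage-gated channels open on depolarisation. Their pore subunit decides the current type, and alpha2delta, beta and gamma subunits control how much of it reaches the membrane and how it opens. TRPC channels open after receptor stimulation of phospholipase C, which also makes IP3 and so opens IP3 receptors in the endoplasmic reticulum. Stim proteins sense the emptied store and open Orai pores in the plasma membrane, a route called store-operated entry.

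Levels are given in CPM (each count relative to its library total, with totals scaled by the TMM method), as the lowest, median and highest of the 6 libraries of an age. Log2 fold changes, P9 over P3, carry their standard error (SE) and come from the quasi-likelihood test of edgeR fitted over 18638 genes, and a gene was called at an adjusted p under 0.05. Library totals ran from 32506999 to 37776172 counts at P9 and from 26839599 to 33514282 counts at P3, so that 1 CPM rested on 25.8 to 38.5 counts. No level is compared between genes, because a longer transcript yields more reads.

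Of the 49 genes, 23 rose at P9, 7 fell and 19 did not pass the test. Over all tested genes 26.1% rose and 25.6% fell (51.8% in either direction), while 46.9% of the channel genes rose and 14.3% fell. Their median log2 fold change was 0.28, beside -0.0018 over all tested genes. A change of at least 2-fold was called for 9 of them, against 18% of all genes, and for 18 of 49 the values of the ages did not overlap, against 31.7% of all genes. Channel genes are long: 22 of the 49 (44.9%) span at least 100000 bases in RefSeq, against 13.8% of tested genes with a RefSeq span. Of all tested genes of that span 42% rose and 21.7% fell, and of the 22 channel genes 13 rose and 2 fell. Among the 27 shorter channel genes 10 rose and 5 fell.

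**Figure D1:**
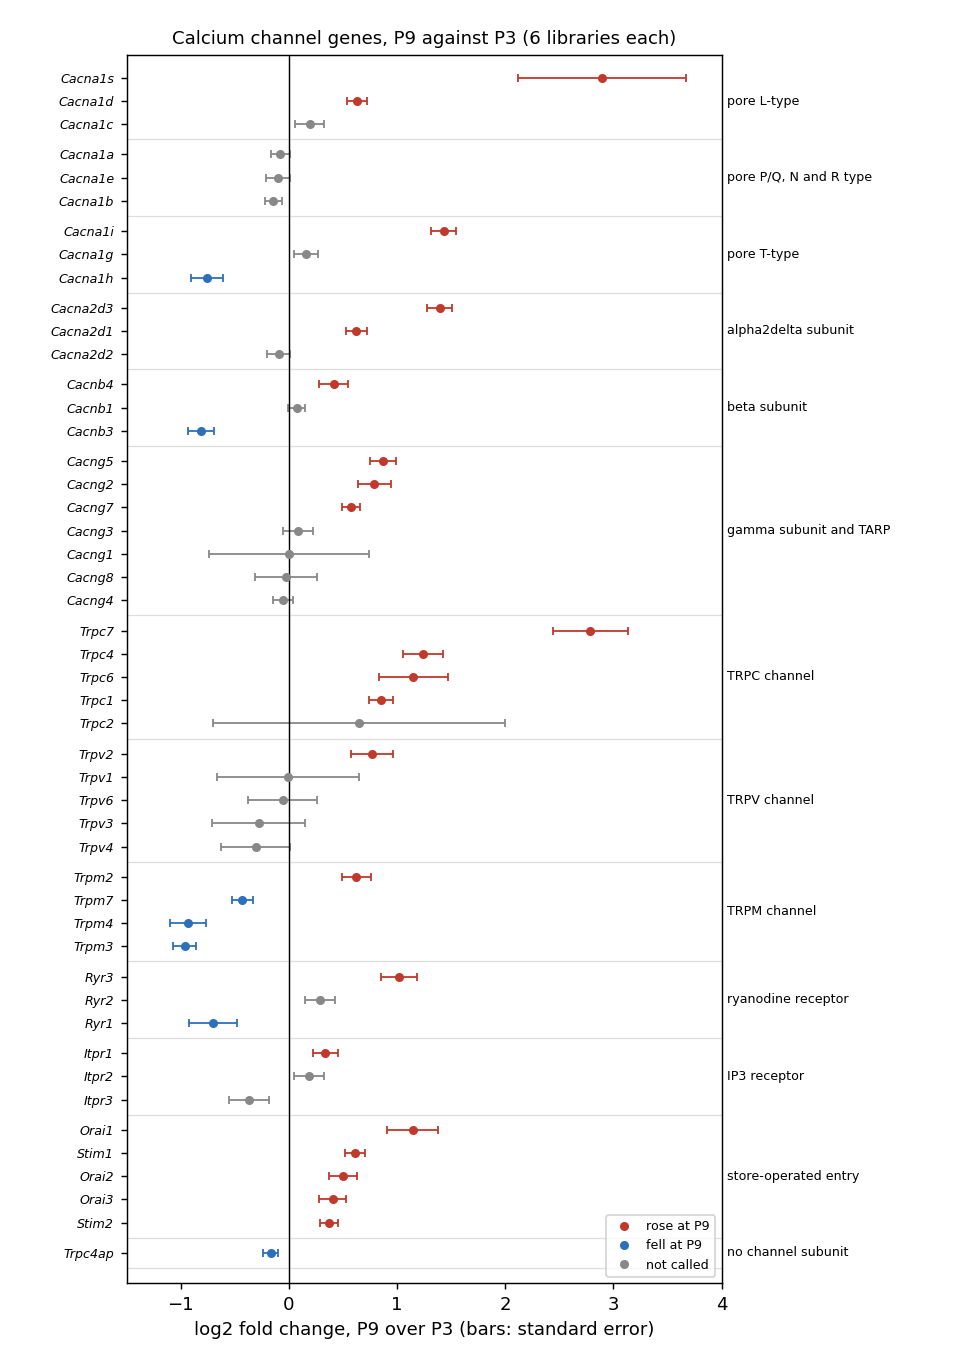
Log2 fold change, P9 over P3, of 48 of the 49 genes, grouped by role (horizontal axis; bars are the standard error; 6 libraries per age). Red points rose and blue points fell at an adjusted p under 0.05, and grey points did not pass: Trpc1, Trpc4, Trpc6, Trpc7 and all 5 Stim and Orai genes lie to the right of 0, while 3 of 4 TRPM genes lie to the left.

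Other cells of the eye contributed RNA to these libraries, and their markers moved with age. The 14 pericyte markers summed to 2858 to 6410 CPM at P9 and 368 to 1355 CPM at P3, and 13 of them rose. The 13 rod markers summed to 8290 to 17180 CPM at P9 and 1496 to 3123 CPM at P3 (13 rose), and the 12 bipolar cell markers to 2080 to 2977 CPM at P9 and 329 to 494 CPM at P3 (12 rose). The 13 retinal progenitor markers summed to 222 to 404 CPM at P9 and 2028 to 6767 CPM at P3 (13 fell), and the 11 lens markers to 46.3 to 1017 CPM at P9 and 4336 to 11150 CPM at P3 (10 of 10 tested fell). The 10 skeletal muscle markers summed to 6.33 to 7.79 CPM at P9; at P3 they reached 574 CPM in replicate 1 and 8.90 to 34.9 CPM in the others. Of the markers on these 6 lists, Myh4 averaged under 0.1 CPM at both ages and Myh2 and Tnnt3, also of skeletal muscle, under 0.1 CPM at P9. The part of any of these cells in the channel results was not tested, and fewer cells of a type and less RNA per cell cannot be told apart in such samples.

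Among the 9 pore subunits of voltage-gated channels, Cacna1d, Cacna1s and Cacna1i rose, Cacna1h fell, and 5 did not pass, among them those of the P/Q, N and R currents. The share called was 44.4%, against 51.8% of all tested genes. L-type channels carry the sustained current that makes smooth muscle contract and feeds ribbon synapses. Cacna1d (ENSMUSG00000015968.17, chromosome 14, 30039941 to 30491156 in GRCm38), the L-type pore that opens at more negative voltages, had 93.0, 104 and 125 CPM at P9, against 59.0, 69.0 and 82.7 CPM at P3. Every P9 library lay above every P3 library (log2 fold change 0.63 ± 0.092, SE; adjusted p = 4.78e-05). Cacna1c (chromosome 6, 118587240 to 119197384), the main L-type pore of vascular smooth muscle, had 22.1, 29.3 and 39.7 CPM at P9 and 22.9, 25.2 and 32.8 CPM at P3. Its ages overlapped, with a log2 fold change of 0.19 ± 0.13 (adjusted p = 0.242). Cacna1d and Cacna1c each overlap protein-coding neighbours in RefSeq, and no source used here says whether the counting used the strand.

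Cacna1s, the L-type pore of skeletal muscle, rose at a very low level, and its P3 spread came from a single library. It had 1.72, 4.57 and 4.92 CPM at P9, against 0.0388, 0.106 and 2.44 CPM at P3, which is 65.2 to 163 counts in each P9 library and 1.05 to 73.8 counts in each P3 library. The log2 fold change was 2.90 ± 0.77 (adjusted p = 0.00565). The high P3 value was that of replicate 1, the library in which skeletal muscle markers summed to 574 CPM. Without that library the log2 fold change was 4.73, a 26.6-fold rise (adjusted p = 4.77e-06). The gene passed the filter on low counts through its P9 libraries, since only 2 P3 libraries reached the level required.

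T-type channels open near the resting potential. Cacna1i (ENSMUSG00000022416.15, chromosome 15, 80287238 to 80398292) rose 2.69-fold, with 24.5, 30.9 and 34.6 CPM at P9 against 9.45, 10.7 and 13.8 CPM at P3 (log2 fold change 1.43 ± 0.11, SE; adjusted p = 1.93e-07). Cacna1h (ENSMUSG00000024112.16, chromosome 17, 25374285 to 25436334) fell, with 321, 386 and 422 CPM at P9 against 466, 603 and 999 CPM at P3 (log2 fold change -0.76 ± 0.15; adjusted p = 0.000714). For both genes the ages did not overlap, in opposite directions. The highest Cacna1h value came from P3 replicate 2, which also held the highest sum of lens markers, 11150 CPM. P3 replicate 1, with the next highest Cacna1h value (677 CPM), held the lowest P3 lens sum, 4336 CPM. In P3 replicates 6, 3, 4 and 5 Cacna1h had 645, 561, 537 and 466 CPM. Their lens sums were 9313, 7654, 6908 and 6203 CPM, in the same order. Whether lens RNA had a part in the Cacna1h values was not tested. Without P3 replicate 2 the log2 fold change of Cacna1h was -0.59. Cacna1g, the remaining T-type pore, had 120, 147 and 162 CPM at P9 and 105, 125 and 169 CPM at P3 (adjusted p = 0.247), and leaving out P3 replicate 2 brought it past the threshold (log2 fold change 0.25, adjusted p = 0.0465).

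The pores of the neuronal P/Q, N and R currents, which trigger release at most synapses, showed overlapping ages. Cacna1a (P/Q) had medians of 76.8 CPM at P9 and 83.5 CPM at P3 (adjusted p = 0.486), Cacna1b (N) 73.7 and 79.1 CPM in the same order (adjusted p = 0.153) and Cacna1e (R) 37.5 and 39.5 CPM (adjusted p = 0.450). Their log2 fold changes lay between -0.14 and -0.08, with SEs of 0.081 to 0.11.

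Auxiliary subunits rose in 6 of 13 cases, fell in 1 and did not pass in 6, so that 53.8% were called, near the 51.8% of all tested genes. Alpha2delta subunits carry the pore to the membrane. Cacna2d3 (ENSMUSG00000021991.9, chromosome 14, 28904943 to 29722775) rose 2.63-fold, with 22.3, 29.6 and 34.3 CPM at P9 against 10.1, 10.8 and 12.6 CPM at P3 (log2 fold change 1.39 ± 0.12, SE; adjusted p = 2.75e-07). Cacna2d1 had 98.3, 140 and 155 CPM at P9 against 78.7, 86.3 and 96.7 CPM at P3 (log2 fold change 0.62 ± 0.096; adjusted p = 7.84e-05). Both genes separated the ages completely, whereas Cacna2d2, with medians of 188 CPM at P9 and 195 CPM at P3, overlapped (adjusted p = 0.483). The span of Cacna2d3 also contains Lrtm1, a bipolar cell gene that averaged 42.9 ± 22.4 CPM at P9 and 0.620 ± 0.346 CPM at P3 (SD, n = 6 each). Exons were not compared, and whether reads of Lrtm1 entered the Cacna2d3 counts was not tested.

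Beta subunits bind the inner face of the pore and went different ways. Cacnb3 (ENSMUSG00000003352.13, chromosome 15, 98628436 to 98644536) had 63.1, 80.2 and 99.5 CPM at P9, against 112, 152 and 162 CPM at P3. No P9 library reached the P3 range (log2 fold change -0.81 ± 0.12, SE; adjusted p = 6.35e-05). Cacnb4 rose 1.33-fold with overlapping ages, at 15.3, 19.7 and 21.9 CPM at P9 and 11.1, 14.7 and 17.2 CPM at P3 (adjusted p = 0.0188). Its call was lost without P9 replicates 5 and 6 together (adjusted p = 0.0663). Cacnb1 had medians of 34.0 CPM at P9 and 33.0 CPM at P3 (adjusted p = 0.493).

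Of the 7 gamma subunit genes 3 rose and 4 did not pass, so that 42.9% were called, against 51.8% of all tested genes. Most of these proteins act as TARPs, which traffic and tune AMPA-type glutamate receptors rather than calcium channels. Cacng5 had 21.0, 25.1 and 27.7 CPM at P9 against 11.9, 12.6 and 18.6 CPM at P3 (log2 fold change 0.87 ± 0.12, SE; adjusted p = 3.49e-05). Cacng2, which encodes stargazin, had 20.4, 29.5 and 30.9 CPM at P9 against 11.5, 16.7 and 22.6 CPM at P3 (0.79 ± 0.15 on the log2 scale; adjusted p = 0.000503). Cacng5 separated the ages and Cacng2 did not. Cacng7 rose 1.49-fold without overlap (adjusted p = 2.95e-05). Like Cacng6 and Cacng8 it stood in 2 rows with equal counts in every library, so each row holds an equal part of its reads. Each Cacng7 row had 35.5, 42.8 and 47.1 CPM at P9 against 26.5, 27.9 and 31.0 CPM at P3. With the rows summed its log2 fold change was 0.57 as before.

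Several gamma genes lie in clusters, and differences between neighbours in them were not tested. On chromosome 11, Cacng5 (107874604 to 107915055) rose. Cacng4 (107732357 to 107794706) had medians of 92.5 CPM at P9 and 93.3 CPM at P3 (adjusted p = 0.635), and Cacng1, a subunit of the skeletal muscle channel, had at most 24 counts in a P9 library and 19 in a P3 library. On chromosome 7, Cacng7 (3332027 to 3368221) rose, and the adjacent Cacng8 (3394042 to 3416266) had medians of 1.48 CPM at P9 and 1.47 CPM at P3. Cacng3, on the same chromosome but apart, had medians of 25.7 CPM at P9 and 23.4 CPM at P3 (adjusted p = 0.640).

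Among TRPC genes, Trpc1, Trpc4, Trpc6 and Trpc7 rose. Trpc7 (ENSMUSG00000021541.13, chromosome 13, 56773098 to 56895968), a channel that diacylglycerol opens, had 2.27, 2.92 and 3.23 CPM at P9 against 0.214, 0.366 and 0.826 CPM at P3. That corresponds to 75 to 110 counts at P9 and 6 to 25 counts at P3, without overlap (log2 fold change 2.79 ± 0.34; adjusted p = 9.99e-06). Trpc7 passed the low-count filter through its P9 libraries, with 3 P3 libraries at the level required.

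Trpc6, also gated by diacylglycerol and a channel of vascular smooth muscle, overlapped between the ages. It had 7.73, 13.3 and 18.04 CPM at P9 and 2.87, 4.74 and 10.8 CPM at P3 (log2 fold change 1.15 ± 0.32, SE; adjusted p = 0.00761). The high P3 values were those of replicates 4 (10.8 CPM) and 5 (9.61 CPM), which also held the highest P3 sums of pericyte markers (1227 and 1355 CPM, against 368 to 690 CPM in the others). The same libraries held the highest P3 sums of smooth muscle (262 and 248 CPM), rod (3123 and 2928 CPM) and bipolar markers (494 and 444 CPM) and the lowest of progenitor markers (2028 and 2073 CPM). Without those libraries the rise was 3.40-fold (log2 fold change 1.77, adjusted p = 8.45e-05). Trpc4 (chromosome 3, 54155584 to 54318471) had 9.86, 11.3 and 13.2 CPM at P9 against 3.10, 4.63 and 6.93 CPM at P3 (log2 fold change 1.24 ± 0.19; adjusted p = 6.18e-05). Trpc1 (chromosome 9, 95705072 to 95750386), which joins other TRPC subunits in mixed channels, had 22.9, 27.5 and 35.6 CPM at P9 against 14.02, 15.3 and 17.7 CPM at P3 (log2 fold change 0.85 ± 0.11; adjusted p = 2.05e-05). Both separated the ages. Trpc2, which pheromone-sensing neurons of mice use, was erratic, from 0 to 235 counts at P9 and 0 to 206 counts at P3.

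The start regions of TRPC genes that rose together differ in composition, as those of Trpc6 and Trpc7 show. Each is 300 bases long, from 250 before to 50 after a RefSeq start in GRCm38.p6, read along the gene; capitals mark a CArG box, the binding motif of serum response factor, searched on both strands. Trpc6 lies at chr9:8543892-8544191 on the plus strand, with 17 CpG dinucleotides and 60.0% G and C, and Trpc7 at chr13:56895740-56896039 on the minus strand, with 3 CpG and 48.0%.
Trpc6: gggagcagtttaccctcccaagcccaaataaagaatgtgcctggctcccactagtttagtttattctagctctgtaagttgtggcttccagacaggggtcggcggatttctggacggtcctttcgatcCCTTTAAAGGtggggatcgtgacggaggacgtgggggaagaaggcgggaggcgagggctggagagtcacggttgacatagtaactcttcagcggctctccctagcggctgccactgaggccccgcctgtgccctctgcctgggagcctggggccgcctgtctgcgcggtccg
Trpc7: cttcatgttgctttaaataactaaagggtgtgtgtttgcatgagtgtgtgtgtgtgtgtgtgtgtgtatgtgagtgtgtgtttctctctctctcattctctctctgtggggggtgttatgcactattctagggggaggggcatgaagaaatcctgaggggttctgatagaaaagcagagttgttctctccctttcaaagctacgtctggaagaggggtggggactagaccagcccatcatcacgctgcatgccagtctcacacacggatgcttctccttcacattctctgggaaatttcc
A CArG box stood in 2 of 51 start regions of the channel genes (3.92%) and in 1.63% of 32851 start regions in the RefSeq table; a match describes the letters only.

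**Figure D2:**
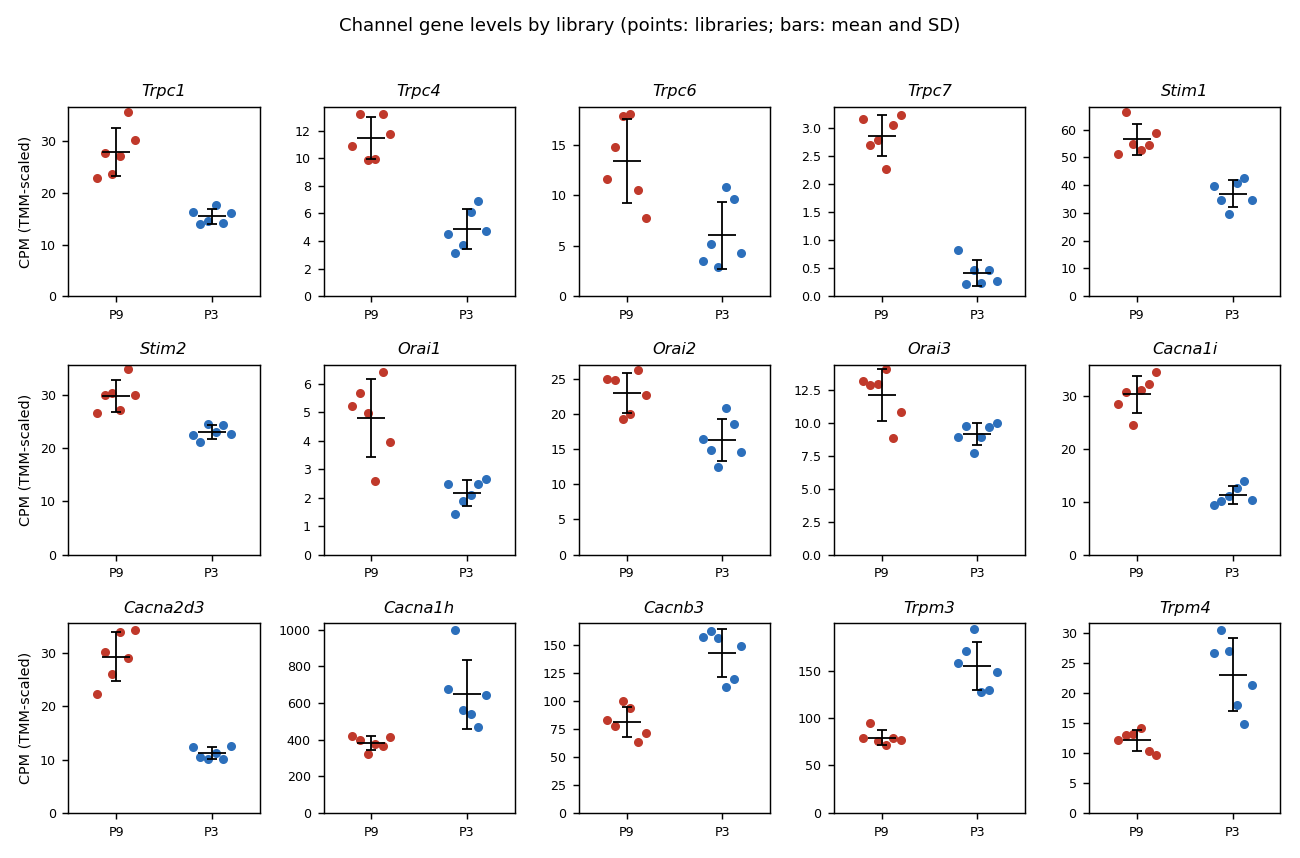
TMM-scaled CPM in each library for 15 channel genes (vertical axes from 0; P9 left in red, P3 right in blue; black bars are mean and SD, n = 6 each). Trpc1, Trpc4 and Trpc7 separate the ages upward and Cacna1h, Cacnb3, Trpm3 and Trpm4 downward, while Trpc6 and Orai2 overlap.

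The 4 TRPM genes taken here went mostly the other way: 3 fell and 1 rose, beside 25.6% falling and 26.1% rising over all tested genes. Other TRPM genes were not taken. One of them, the bipolar marker Trpm1, rose, averaging 421 CPM at P9 and 19.6 CPM at P3. Trpm3 (ENSMUSG00000052387.15, chromosome 19, 22137797 to 22995410), a heat- and steroid-sensitive channel that retinal pigment epithelium and Müller glia express, had 71.6, 77.7 and 94.3 CPM at P9, against 127, 154 and 194 CPM at P3. The ages did not overlap (log2 fold change -0.96 ± 0.11, SE; adjusted p = 3.20e-06). Trpm4, which calcium opens and which passes sodium, had 9.72, 12.6 and 14.1 CPM at P9 against 14.8, 24.0 and 30.6 CPM at P3 (log2 fold change -0.93 ± 0.17; adjusted p = 0.000283). Trpm7, a channel fused to a kinase that carries magnesium and calcium, had 146, 149.9 and 184 CPM at P9 against 171, 223 and 246 CPM at P3 and overlapped (log2 fold change -0.43 ± 0.097; adjusted p = 0.00168). The one that rose was Trpm2, a channel opened by ADP-ribose under oxidative stress and known from microglia, with 13.1, 14.7 and 20.2 CPM at P9 against 8.43, 10.3 and 11.5 CPM at P3 (adjusted p = 0.00135). The 10 microglia markers summed to 53.5 to 97.8 CPM at P9 and 50.5 to 59.0 CPM at P3 (4 rose, 6 did not pass). The 11 Müller glia markers summed to 1672 to 2303 CPM at P9 and 1254 to 1766 CPM at P3 (7 rose, 1 fell). The 8 pigment epithelium markers summed to 58.4 to 112 CPM at P9 and 29.8 to 77.7 CPM at P3 (2 rose). The part of these cells in the TRPM values was not tested.

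At P3, Trpm3 and Trpm7 were each highest in replicate 3 and lowest in replicate 4, the same libraries as for the sum of progenitor markers (6767 and 2028 CPM). So was Itpr1, which rose at P9, and also Trpv6, together 4 of 49 channel genes (8.16%) against 5.73% of all tested genes. Trpv6 had only 32 to 72 counts in a P3 library. The smooth muscle, rod and bipolar sums ran the opposite way, highest in P3 replicate 4 and lowest in P3 replicate 3. Which cells the 4 genes followed was not tested.

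Of 5 TRPV genes, only Trpv2 rose and the others did not pass, so that 20% were called, against 51.8% of all tested genes. Trpv2, a channel of stretched or heated membranes, had 5.90, 11.7 and 15.1 CPM at P9 and 5.57, 6.70 and 7.61 CPM at P3. P9 replicate 1 gave the low value and lay within the P3 range (log2 fold change 0.77 ± 0.19, SE; adjusted p = 0.00392). Trpv4, the osmosensitive channel that Müller glia and endothelium carry, was near the limit of measurement, at 31 to 47 counts in a P9 library and 23 to 69 in a P3 library (log2 fold change -0.31 ± 0.32; adjusted p = 0.441). The epithelial calcium channel gene Trpv6 had 40 to 88 counts at P9 and 32 to 72 at P3, and the neighbours Trpv1 and Trpv3 on chromosome 11 had at most 27 and 26 counts at P9 and at most 17 and 29 at P3. At such counts a change was not detectable unless large: the SEs of their log2 fold changes were 0.66 and 0.43.

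All 5 genes of store-operated entry rose, between 1.29-fold and 2.21-fold, while 26.1% of all tested genes rose. Whether they rose in the same cells was not tested. Stim1 (ENSMUSG00000030987.5, chromosome 7, 102261514 to 102437319), the main sensor of the store, had 51.3, 54.8 and 66.4 CPM at P9 against 29.7, 37.2 and 42.4 CPM at P3 (log2 fold change 0.61 ± 0.095, SE; adjusted p = 8.05e-05). Stim2, which responds to smaller losses of stored calcium, had 26.6, 29.9 and 34.9 CPM at P9 against 21.1, 22.8 and 24.5 CPM at P3 (0.37 ± 0.082 on the log2 scale; adjusted p = 0.00142). Neither overlapped between the ages. Orai1 (ENSMUSG00000049686.14, chromosome 5, 123015074 to 123030452), the pore that Stim1 opens, had 2.57, 5.10 and 6.41 CPM at P9 and 1.43, 2.29 and 2.65 CPM at P3. It rose 2.21-fold (log2 fold change 1.14 ± 0.24; adjusted p = 0.000969), with the lowest P9 value, that of replicate 4, just inside the P3 range.

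Both related pores rose too. Orai2 had 19.4, 23.9 and 26.4 CPM at P9 and 12.5, 15.7 and 20.9 CPM at P3 (log2 fold change 0.50 ± 0.13, SE; adjusted p = 0.00423). Orai3, known only from mammals, had 8.84, 12.9 and 14.1 CPM at P9 and 7.71, 9.34 and 9.99 CPM at P3 (0.40 ± 0.13 on the log2 scale; adjusted p = 0.0150). The ages of both overlapped by their extreme libraries.

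The start regions of Stim1 and Orai1 are shown because these genes form the sensor and the pore of one pathway and both rose. Capitals mark the GC box GGGCGG on either strand; it occurs 8 times at Stim1 (chr7:102267569-102267868, plus strand, 38 CpG, 78.7% G and C) and 3 times at Orai1 (chr5:123014824-123015123, plus strand, 36 CpG, 70.3%), overlaps counted.
Stim1: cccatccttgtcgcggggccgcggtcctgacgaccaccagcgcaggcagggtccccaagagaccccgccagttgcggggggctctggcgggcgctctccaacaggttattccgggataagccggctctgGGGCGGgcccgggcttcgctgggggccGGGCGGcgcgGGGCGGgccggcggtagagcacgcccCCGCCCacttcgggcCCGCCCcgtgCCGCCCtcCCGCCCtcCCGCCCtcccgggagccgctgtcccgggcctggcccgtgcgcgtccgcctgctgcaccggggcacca
Orai1: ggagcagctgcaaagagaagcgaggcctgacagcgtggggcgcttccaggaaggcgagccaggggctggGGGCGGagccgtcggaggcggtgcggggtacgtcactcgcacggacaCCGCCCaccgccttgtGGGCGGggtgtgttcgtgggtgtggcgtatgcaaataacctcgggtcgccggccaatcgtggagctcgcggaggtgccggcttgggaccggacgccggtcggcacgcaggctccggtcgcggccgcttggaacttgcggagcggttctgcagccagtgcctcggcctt
At least one GC box stood in 27 of the 51 start regions (52.9%) of the 40 channel genes listed in the RefSeq table, against 35.7% of all regions in it, and the median region of the channel genes held 17 CpG against 7. A GC box stood in 57.7% of the regions of genes that rose, 57.1% of those of genes that fell and 44.4% of those of genes not called. Cacna1a, Cacna1g, Cacna1h, Cacng1, Cacng4, Itpr1, Ryr3 and Trpm4 have no region in the table.

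Of the 6 release channels of the endoplasmic reticulum, 2 rose, 1 fell and 3 did not pass. Thus 50% were called, near the 51.8% of all tested genes. Ryanodine receptors open on calcium itself and amplify it. Ryr3 (ENSMUSG00000057378.15, chromosome 2, 112631354 to 113217405), a form of brain and smooth muscle, had 43.4, 54.8 and 64.8 CPM at P9, against 15.9, 27.8 and 37.9 CPM at P3. It rose 2.02-fold without overlap (log2 fold change 1.02 ± 0.17, SE; adjusted p = 0.000146). Ryr2, the cardiac form that neurons and smooth muscle also use, had 84.2, 99.6 and 109 CPM at P9 and 58.3, 79.1 and 107 CPM at P3 (0.28 ± 0.14 on the log2 scale; adjusted p = 0.0988). P3 replicates 4 and 5, at 107 and 98.5 CPM, lay within the P9 range. Without replicate 4 the call passed (log2 fold change 0.40, adjusted p = 0.0168), and likewise without both (0.50, adjusted p = 0.00223). In Ryr3 the same libraries were the lowest of P3, at 15.9 and 21.6 CPM.

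Ryr1, the skeletal muscle form, fell, with 5.07, 8.28 and 10.6 CPM at P9 and 8.34, 12.7 and 21.9 CPM at P3 (log2 fold change -0.70 ± 0.22, SE; adjusted p = 0.0152). Its highest value was again that of P3 replicate 1, the library with skeletal muscle markers; without it the log2 fold change was -0.51 (adjusted p = 0.0401). Without P9 replicates 5 and 6 the call was lost (adjusted p = 0.0524). Among IP3 receptors, Itpr1, the form of neurons and smooth muscle, had 27.7, 30.9 and 43.0 CPM at P9 and 23.2, 26.6 and 29.0 CPM at P3 (log2 fold change 0.34 ± 0.11; adjusted p = 0.0219). Leaving out P9 replicate 2 or P9 replicate 5 ended the call (adjusted p = 0.0549 and 0.0527), as did leaving out P9 replicates 5 and 6 (0.0605) or P3 replicates 4 and 5 (0.0922). Itpr2 had medians of 16.5 CPM at P9 and 16.2 CPM at P3 (adjusted p = 0.273). Itpr3, the form of epithelia, had 9.66 CPM at P9 and 11.98 CPM at P3 in the median (adjusted p = 0.105), and passed as a fall without P3 replicates 4 and 5 (log2 fold change -0.50, adjusted p = 0.0438).

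Trpc4ap, the matched gene that is no channel, fell slightly, with 154, 163 and 180.4 CPM at P9 and 167, 188 and 203 CPM at P3 (log2 fold change -0.17 ± 0.066, SE; adjusted p = 0.0432). Its call was lost in 9 of the 12 fits that each left out 1 library, with adjusted p up to 0.0944 and a log2 fold change between -0.199 and -0.14. The libraries whose absence kept the call were P3 replicates 3 and 6 and P9 replicate 3.

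**Figure D3:**
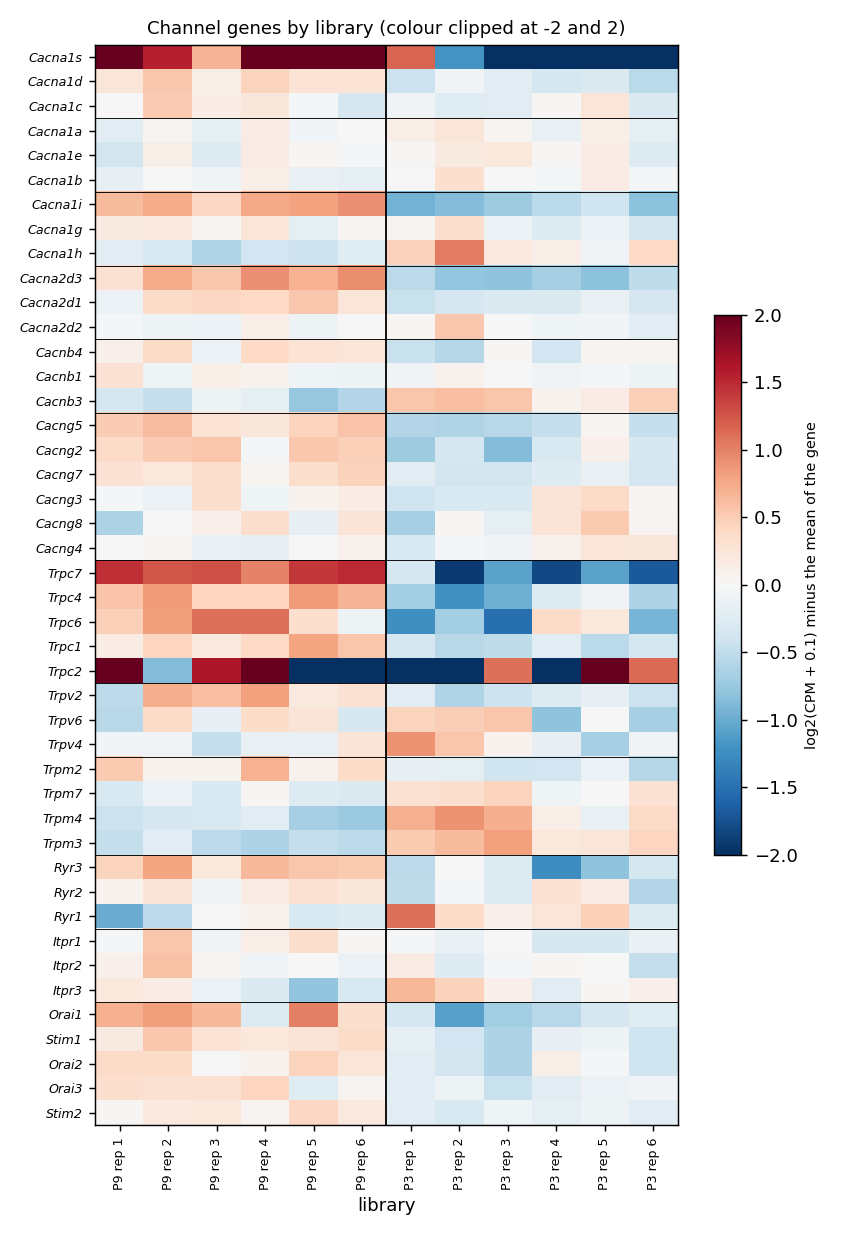
Most of the channel genes that averaged 1 CPM or more in either age (rows, grouped by role) in each library (columns, P9 left, P3 right). Colour is log2(CPM + 0.1) minus the mean of the gene, clipped at -2 and 2; the Trpc1, Trpc4, Trpc7, Stim1 and Stim2 rows run towards red at P9 and towards blue at P3, Cacna1s in P3 replicate 1 stands apart from the other P3 libraries, and Trpc2 varies within both ages.

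To ask whether related genes changed to a different degree, the log2 ratio of their CPM was taken within each library for 10 pairs, so that scaling and, in the difference between ages, transcript length cancel. The permutation test was exact and two-sided, with 924 assignments of the 12 libraries and a smallest p of 0.00216, and p-values were adjusted over the 10 pairs. For 9 pairs the ratio differed between the ages and for Itpr1 over Itpr2 it did not pass (difference 0.14, exact permutation adjusted p = 0.335). The pairs were chosen with earlier results of these data known. Ratios of other gene pairs were not computed, so no background share stands beside the 9 of 10.

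The ratio of Cacnb3 to Cacnb4 averaged 2.06 ± 0.37 at P9 and 3.30 ± 0.397 at P3 (log2, SD, n = 6 each), a difference of -1.24 (exact permutation adjusted p = 0.00541). That of Cacna1g to Cacna1h was -1.40 ± 0.18 at P9 and -2.29 ± 0.27 at P3, and that of Cacna2d1 to Cacna2d3 was 2.19 ± 0.21 at P9 and 2.96 ± 0.22 at P3. In all 3 pairs the ages did not overlap: the beta and alpha2delta balance moved towards Cacnb4 and Cacna2d3, and the T-type balance away from Cacna1h. Ryr2 over Ryr3 was 0.85 ± 0.12 at P9 and 1.59 ± 0.71 at P3; the P3 spread came from replicates 4 and 5, at 2.75 and 2.19 beside 0.98 to 1.24 in the others, all above the P9 range. Cacna1c over Cacna1d differed by -0.45 (exact permutation adjusted p = 0.0186) and Trpm4 over Trpm7 by -0.47 (exact permutation adjusted p = 0.0108), both lower at P9 with overlap.

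Within store-operated entry the balance shifted towards Stim1 and Orai1, but not firmly. Stim1 over Stim2 averaged 0.92 ± 0.17 at P9 and 0.67 ± 0.21 at P3 (log2, SD, n = 6 each; difference 0.25, exact permutation adjusted p = 0.0481). Orai1 over Orai2 averaged -2.30 ± 0.37 at P9 and -2.89 ± 0.35 at P3 (difference 0.58, exact permutation adjusted p = 0.0325). Leaving out 1 library ended the call for Stim1 over Stim2 in 8 of 12 cases (P3 replicates 2, 3 and 6; P9 replicates 1, 2, 3, 4 and 6; adjusted p up to 0.0986) and for Orai1 over Orai2 in 6 (P3 replicates 2 and 4; P9 replicates 1, 2, 3 and 5; up to 0.0649).

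**Figure D4:**
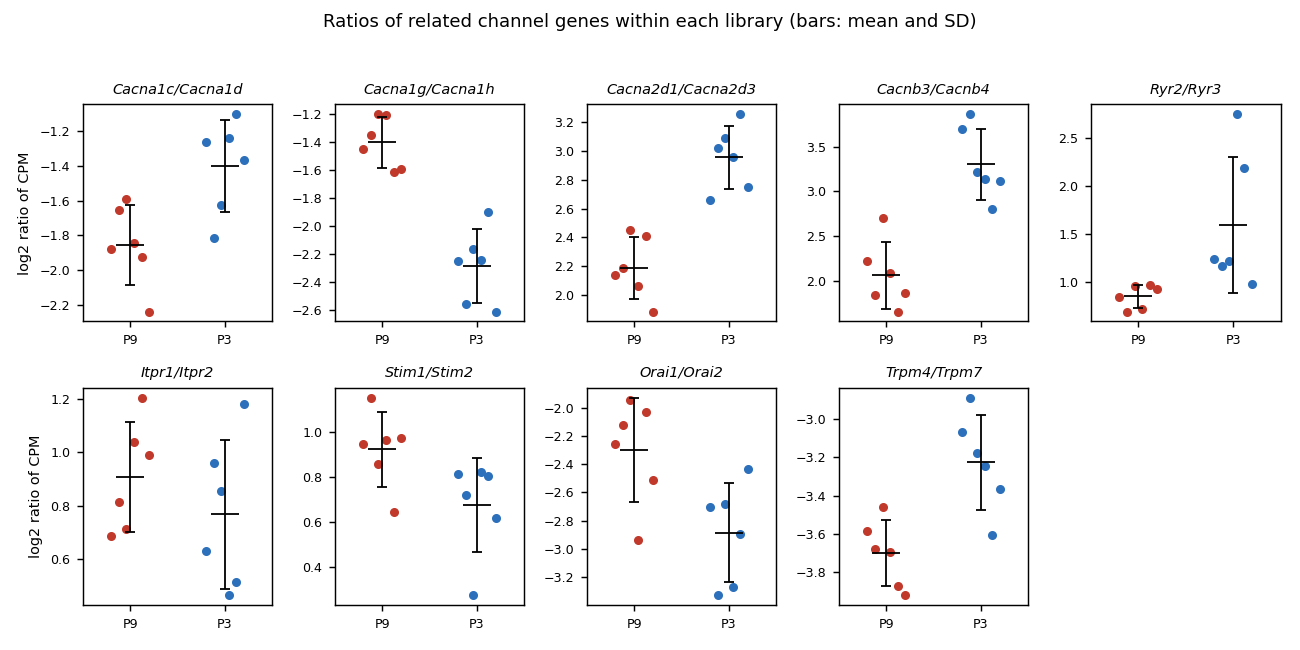
Log2 ratio of the CPM of related channel genes in each library (vertical axes; P9 left in red, P3 right in blue; black bars are mean and SD, n = 6 each). Cacna1g/Cacna1h lies higher at P9 and Cacna2d1/Cacna2d3, Cacnb3/Cacnb4 and Ryr2/Ryr3 lower, each without overlap, while Itpr1/Itpr2 overlaps.

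Libraries of one age differed in their pericyte markers, and some channel genes were highest and lowest in the same libraries as these markers. The libraries between were not compared. At P9 the pericyte sum was highest in replicate 2 (6410 CPM) and lowest in replicate 6 (2858 CPM). Cacna1c was highest and lowest in the same libraries (39.7 and 22.1 CPM), as was Itpr2 (24.4 and 14.9 CPM). Of the 49 genes 6.12% shared both libraries, against 4.83% of all tested genes, a share near the background. At P3 the pericyte sum was highest in replicate 5 and lowest in replicate 3, as for Stim1 (42.4 and 29.7 CPM) and Cacng2 (22.6 and 11.5 CPM). At that age 4 of the 49 genes (8.16%) shared both libraries, against 3.78% of all tested genes. The rod and bipolar sums were highest in P9 replicate 6 and lowest in P9 replicate 3. So were Cacna1i (34.6 and 24.5 CPM), Cacna1s (4.92 and 1.72 CPM), Cacng1 and Trpv4, 4 of the 49 genes (8.16%) against 3.81% of all tested genes. Cacng1 had only 0 to 24 counts and Trpv4 31 to 47 counts in a P9 library. The progenitor and smooth muscle sums ran the opposite way, highest in P9 replicate 3 and lowest in P9 replicate 6. Which cells these genes followed was not tested.

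**Figure D5:**
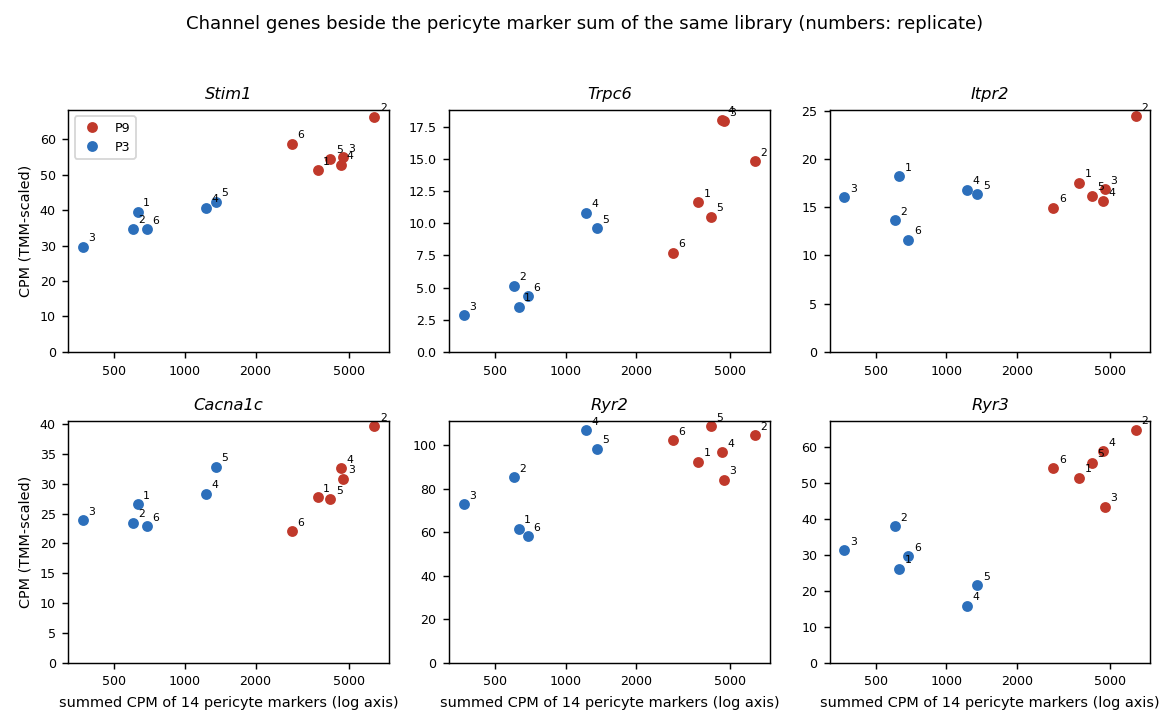
TMM-scaled CPM of 6 channel genes (vertical axes from 0) against the summed CPM of 14 pericyte markers in the same library (horizontal log axis; red P9, blue P3; numbers are replicates). Cacna1c in P9 runs from 22.1 CPM in replicate 6 to 39.7 CPM in replicate 2, the libraries with the lowest and highest pericyte sums, and Trpc6, Ryr2 and Ryr3 in P3 replicates 4 and 5 stand apart from the other P3 libraries.

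Other genes of calcium handling are given by list, beside 26.1% rising and 25.6% falling over all tested genes. Of 12 pumps and exchangers that clear calcium, 10 rose, 1 fell and 1 did not pass. Atp2c1, the Golgi pump, averaged 224 ± 20.1 CPM at P9 and 146 ± 5.99 CPM at P3 (SD, n = 6 each; adjusted p = 5.07e-06). The plasma membrane pumps Atp2b3 and Atp2b1 rose 2.12-fold and 1.78-fold. The one that fell was Atp2a1, the skeletal muscle pump, named after its values were seen, at 1.62 ± 0.224 CPM at P9 and 7.20 ± 12.9 CPM at P3. Among 14 tested regulators and buffers of the store, 10 rose, 1 fell and 3 did not pass. Homer3, a scaffold that tethers receptors to IP3 receptors, fell, to 36.9 ± 6.25 CPM at P9 against 82.1 ± 5.14 CPM at P3 (adjusted p = 3.69e-07), while Jph3, which holds the store close to the plasma membrane in neurons, rose 2.50-fold and Asph, an aspartyl hydroxylase gene that also encodes junctin, 1.47-fold.

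Phospholipase C genes, which supply IP3 and diacylglycerol, rose in 5 of 12 cases, fell in 3 and did not pass in 4. Plcg1, the form that growth factor receptors activate, fell, with 189 ± 29.4 CPM at P9 and 406 ± 55.3 CPM at P3 (SD, n = 6 each; adjusted p = 1.99e-06). Plch2 and Plcb4 rose 1.77-fold and 1.64-fold; Plcb4 is the form of the retina and cerebellum that G-proteins drive. Of 9 tested genes of mitochondrial calcium uptake 6 rose and 3 did not pass. Mcu, the pore of the uniporter, averaged 48.8 ± 3.04 CPM at P9 and 26.4 ± 3.15 CPM at P3 (adjusted p = 1.06e-06), and the outer membrane channels Vdac1 and Vdac2 rose 1.49-fold and 1.30-fold. Of 25 tested calcium sensors and targets 20 rose and 5 did not pass, led by Kcnma1, the kinase gene Camkk1 (2.07-fold) and the calcineurin subunit gene Ppp3cc (3.22-fold).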

How the data were processed

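Per the labels, RNA was purified with a micro column kit after HA pulldown, and stranded mRNA libraries were made with a NuGEN kit. The authors deposited gene-level expected counts from RSEM without depth scaling, and 15.9% of the values are not whole. The submitters' processing notes name the build mm10 and the tools STAR, RSEM, Trim Galore, FastQC and limma, without versions or annotation. RSEM assigns reads that match several genes by likelihood, which can move counts between near-identical copies.

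Expected counts were rounded. filterByExpr kept 18638 of 53090 rows, libraries were scaled by TMM, and P9 was compared with P3 by the quasi-likelihood test of edgeR 4.0.16 under R 4.3.3. P-values were adjusted by Benjamini-Hochberg over every tested gene, with a threshold of 0.05. The SE is the absolute log2 fold change divided by the root of the F statistic. Ratios used a prior count of 2. A gene that enters the counts is not reported here by name. The procedure was tested on simulated counts. Groups came from the age in the labels, replicates were numbered by accession, and each library counted as 1 sample; titles and file names of P9 replicates 5 and 6 are crossed, which leaves both in P9. Genes are placed by symbol on RefSeq GRCm38.p6, the assembly of mm10.

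The genes, lists, pairs and named-gene rule were chosen with earlier results of these data known. The rule gives every called gene with a mean of at least 1 CPM by its values and, per list of calcium handling genes, the 3 called genes ranked first by adjusted p. Alternatives were other scalings, omitting the low-count filter, requiring 10 CPM on average, limma-voom (limma 3.58.1), DESeq2 1.42.0, an adjusted p under 0.01, each library left out, P3 replicates 4 and 5 or P9 replicates 5 and 6 left out, a prior count of 0.5 and, chosen after seeing the data, summing rows of equal values under 1 symbol. P3 replicates 4 and 5, like P9 replicates 5 and 6, differed less from each other than any other pair of libraries of their age. The labels do not say whether such libraries are independent samples.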

Additional observations from a re-analysis of the deposited data

Results flagged for a closer look

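Among the 49 channel genes, 98 sets of 6 libraries were searched on the log2 scale for a highest or lowest library whose gap to its neighbour took an unusually large part of the range (above Dixon's critical value); chance gives about 1 in 20 such sets, and 5 were found. Itpr2 stood at 24.4 CPM in P9 replicate 2, above 17.5 CPM in the next library, and Trpm3 at 94.3 CPM in the same library, above 78.9 CPM. Cacng2 was low in P9 replicate 4, at 20.4 CPM below 27.5 CPM. Cacng5 was high in P3 replicate 5, at 18.6 CPM above 13.0 CPM. Cacna2d2 was high in P3 replicate 2, at 286 CPM above 203 CPM.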

How the results depend on the processing

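The number of channel genes called stayed at 30 with median-ratio and upper-quartile factors, DESeq2, limma-voom and summed equal rows; it was 29 with library totals or no low-count filter, 24 of those tested with a mean of at least 10 CPM and 25 at an adjusted p under 0.01. Leaving out 1 library gave 28 to 30 called (22 to 24 rising, 6 or 7 falling) and 8936 to 9659 genes called in all, against 9647. No channel gene or ratio that was called changed direction under any of these. At 0.01 the calls of Cacnb4, Itpr1, Ryr1, Orai3 and Trpc4ap were lost, and Trpc4ap also with library totals (adjusted p = 0.0663) and without the filter (0.131). The number of ratios past the threshold was 9 with a prior count of 0.5 and 7 to 9 with 1 library left out. For Cacna1s and Trpc2 a single library moved the fold change, taken off the log2 scale, by over 1.5 times. The log2 fold change of Trpc2, not called, was 2.24 without P3 replicate 5 and -0.12 without P9 replicate 4. Scaling moved the median of all genes by at most 0.012 on the log2 scale. No paired analysis was possible because no replicate number common to both ages stands in the labels.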

Other observations

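Trpc2 lies within the span of Xntrpc, a gene named for its joining with Xndc1, and Xntrpc averaged 11.6 ± 3.06 CPM at P9 and 21.3 ± 6.88 CPM at P3 (SD, n = 6 each) while Trpc2 was listed at 0 in 2 P9 and 3 P3 libraries. Of the 49 channel genes, 30 overlap another RefSeq gene and 7 overlap a protein-coding one.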
